A study of Mus musculus with 7 samples.

Results

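*Acta1* and *Actc1* are the 2 striated muscle actin genes, and the peaks described here are those of 6 ChIP-seq peak lists that overlap either gene or lie within 10 kb of one of its transcription start sites (TSSs). By this rule 20 of 527912 deposited peaks belonged to them, 15 at *Acta1* and 5 at *Actc1*. The 2 genes were chosen from the measured peaks of these lists, so their values are given as a description with no test. The lists came from gastrocnemius muscle of male wild-type C57BL/6J mice, 5 months old, and each factor had 2 biological replicates. Zeitgeber time (ZT) 4 was used for BMAL1 and for RNA polymerase II, abbreviated RNAP2, and ZT 8 for REV-ERBα, where ZT counts hours from lights on. The study collected muscles at the time of day when each clock protein is most abundant, so factor and time cannot be told apart when REV-ERBα is set beside the other two. A whole muscle holds fibres, vessels, fat and blood cells, and the lists average over all of them.

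Actin forms the thin filament that myosin pulls on during contraction. *Acta1* encodes the actin of adult skeletal muscle, one of the most abundant proteins of a fibre, whereas *Actc1* encodes the actin of the heart, which is also made in fetal and regenerating skeletal muscle and is largely silent in adult limb muscle. Transcription of both genes is known to depend on serum response factor (SRF) and its MRTF coactivators, which act at CArG boxes, together with TEAD and myogenic factors. BMAL1 is the activating arm of the circadian clock and binds E-boxes with its partner CLOCK, and REV-ERBα is a nuclear receptor that represses transcription at sites built on an AGGTCA core.

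The lists differed in length within a factor. BMAL1 had 34737 peaks in replicate 1 and 177669 in replicate 2, RNAP2 had 87870 and 168821, and REV-ERBα had 28881 and 29934. Each peak carries a −log10 p and a fold enrichment over input at its summit, the position of highest signal, and larger values stand for stronger enrichment. The lists are not on a common scale, so ranks within a list are given beside the values. Of 8 markers of skeletal muscle fibres, 8 had an RNAP2 region found in both replicates, meaning overlapping peaks in the 2 lists merged into 1 region. The same held for 2 of 6 cardiac markers, 0 of 4 smooth muscle markers, and 1 of 3 markers each of adipocytes, endothelium and macrophages. Among all 21938 protein-coding genes this share was 41.1%. For BMAL1 and REV-ERBα, 6 of the 8 fibre markers had a region, as did 1 smooth muscle marker (*Myh11*, BMAL1) and 0 of the other cell type markers. Over all protein-coding genes the shares were 6.81% for BMAL1 and 4.44% for REV-ERBα.

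The sequences below are the promoter of each gene, which the strongest RNAP2 peaks reached at *Acta1* and no peak reached at *Actc1*, and the stretch past the 3′ end of *Acta1* around the strongest BMAL1 and REV-ERBα summits. They are RefSeq sequence of GRCm38 (mm10), 5′ to 3′ on the minus strand from which both genes are read. Capitals mark motif matches, which are E-boxes of the form CANNTG, the CArG box, the TEAD core CATTCC and the TATA box TATAAA (matched on the strand shown).
Acta1 promoter, chr8:123894776-123895025: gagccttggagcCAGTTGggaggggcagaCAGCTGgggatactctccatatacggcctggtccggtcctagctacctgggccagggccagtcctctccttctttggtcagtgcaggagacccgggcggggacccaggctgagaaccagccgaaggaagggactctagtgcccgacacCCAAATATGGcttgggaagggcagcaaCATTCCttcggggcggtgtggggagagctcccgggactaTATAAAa
Actc1 promoter, chr2:114052888-114053125: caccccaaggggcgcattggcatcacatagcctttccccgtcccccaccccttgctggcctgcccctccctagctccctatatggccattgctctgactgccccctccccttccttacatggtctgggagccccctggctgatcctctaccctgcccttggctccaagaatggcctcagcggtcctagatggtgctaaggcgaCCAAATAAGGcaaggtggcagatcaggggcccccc
Acta1 3′ flank, chr8:123891041-123891333: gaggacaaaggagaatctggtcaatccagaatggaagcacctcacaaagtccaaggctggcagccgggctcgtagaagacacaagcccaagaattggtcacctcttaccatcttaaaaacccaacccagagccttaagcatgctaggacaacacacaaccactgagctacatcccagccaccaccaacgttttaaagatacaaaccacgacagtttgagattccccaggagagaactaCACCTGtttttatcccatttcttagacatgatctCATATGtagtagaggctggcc

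A total of 8 motifs were searched on both strands in the RefSeq promoter windows of 300 bp, of which 250 bp lie upstream of the start. A CArG box was present at both genes, 73 bp upstream of the RefSeq start at *Acta1* and 47 bp upstream at *Actc1*, and 1.63% of 32851 promoters held one. The RefSeq starts are not the TSSs from which peak distances run. At *Acta1* they are chr8:123894775 and 123894751. At *Actc1* the RefSeq start is chr2:114052875 and the outermost TSS is 114053548, so the printed *Actc1* promoter lies inside the annotated gene body. The *Acta1* promoter also held 2 E-boxes of the form CANNTG (72.3% of promoters held at least 1), a CATTCC (14.7%), a TATAAA (13.6%) and 2 copies of GGGCGG, the GC box, not in capitals (35.7%). In the *Actc1* window a CANNTG and a TATAAA lay downstream of the RefSeq start, outside the printed stretch. Neither window held CACGTG, the form of CANNTG that BMAL1:CLOCK prefers (7.15%), AGGTCA (16.3%) or the MEF2 site (3.19%). These matches describe letters in a window and were not tested as binding sites.

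*Acta1* (ENSMUSG00000031972) spans chr8:123891769-123894751 on the minus strand, 2983 bp in all, with 1 annotated TSS. Enrichment covered it nearly from end to end in 5 of the 6 lists, the exception being BMAL1 replicate 2, and BMAL1 and REV-ERBα were strongest past its 3′ end while RNAP2 was strongest just inside its 5′ end. It had 1 BMAL1 region, 1 REV-ERBα region and 3 RNAP2 regions present in both replicates. Regions by this rule were found at 6.81% of protein-coding genes for BMAL1 and at 4.44% for REV-ERBα, shares that are printed for scale only because the same peaks chose the gene.

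**Figure D1:**
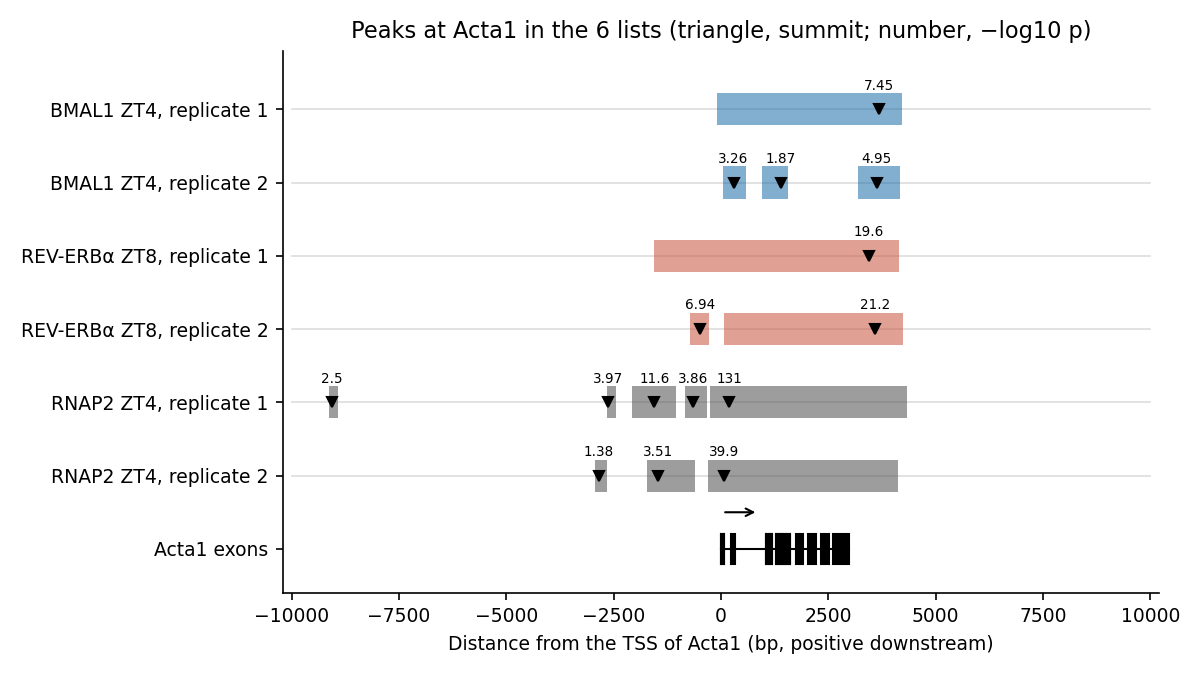
Peaks at *Acta1* in each of the 6 lists, as bars along the distance from its TSS in bp, with triangles at the summits and the −log10 p of each peak above. The downstream edges of the strongest peaks line up past the last exon in all 6 lists. These peaks are wide except in BMAL1 replicate 2, where the bar lies wholly past the gene. Their BMAL1 and REV-ERBα triangles lie past the gene, and their RNAP2 triangles lie at its 5′ end.

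RNAP2, the enzyme that transcribes the gene, gave a −log10 p of 131 with a fold enrichment of 38.8 in replicate 1 and 39.9 with 14.7 in replicate 2. In its own list this was peak 3 of 87870 and peak 44 of 168821. Both were wide peaks, 4572 and 4417 bp, that covered 100% of the gene body, and they reached 249 and 291 bp upstream of the TSS. Their summits lay in an intron, 195 and 82 bp downstream of the TSS and 113 bp apart. By strongest RNAP2 value the gene ranked 8 and 59 of 21938 protein-coding genes.

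REV-ERBα gave a −log10 p of 19.6 with 7.15-fold enrichment in replicate 1 and 21.2 with 7.65-fold in replicate 2. These were peaks 80 of 28881 and 79 of 29934, so the replicates were close in value and in rank. The peak of replicate 1 was 5709 bp wide and ran from 1553 bp upstream of the TSS to 1173 bp past the gene end. Replicate 2 had the same enrichment in 2 pieces, a main peak of 4176 bp that covered 97.8% of the body, and a smaller one of 448 bp upstream, with its summit 497 bp before the TSS and a −log10 p of 6.94. By width, the main peaks were numbers 13 and 19 of their lists. Both strongest summits lay downstream of the gene, 466 and 604 bp past its end.

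BMAL1 gave a −log10 p of 7.45 with 4.00-fold enrichment in replicate 1 and 4.95 with 3.46-fold in replicate 2. Within their lists these peaks ranked 61 of 34737 and 207 of 177669, and by strongest BMAL1 value the gene ranked 45 and 150 of 21938. In replicate 2 these are the best ranks of a tie, since 400 peaks of that list carry exactly this value and 1.76% of genes had a value at least as high. Corrected for multiple testing by the peak caller, the −log10 q was 2.30 in replicate 1 and 0 in replicate 2, so the second replicate did not pass at the level of single peaks. Replicate 1 had 1 peak of 4314 bp over 100% of the body, number 11 of its list by width. Replicate 2 had 3 separate peaks that covered 38.4% of the body. They were a downstream peak of 968 bp, a peak of 601 bp over coding exons with a −log10 p of 1.87, and a peak of 544 bp near the TSS with 3.26. The value 1.87 is shared by 29.4% of the peaks in that list. The strongest summit again lay past the gene end in both replicates, by 698 and 644 bp.

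The downstream limit of the enrichment was nearly the same in every list. It ended 1143 to 1340 bp past the annotated gene end, a range of 197 bp over 6 lists. A stretch of 934 bp that began 3192 bp from the TSS and ended 1143 bp past the gene end was under a peak in all 6 lists, as were 601 and 527 bp inside the gene. Without BMAL1 replicate 2, the 5 other lists shared 1 unbroken stretch of 4059 bp. The 4 strongest summits of BMAL1 and REV-ERBα fell within 232 bp of each other, and each lay 3253 to 3598 bp downstream of the RNAP2 summits.

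Strongest summits past the gene end were also counted over all protein-coding genes. Of 1494 genes with a BMAL1 region, 9 (0.602%) had the strongest summit of both replicates within 1 kb past their end, and of 975 genes with a REV-ERBα region, 26 (2.67%) did. This definition was chosen after the *Acta1* summits were seen. The window reaches 10 kb from a TSS, so peaks wholly past the end of a longer gene can be left out. No expected share was computed, and the counts do not say whether the position is rare. *Acta1*, *Tnnt3*, which encodes fast skeletal troponin T, and *Txnip*, an inhibitor of thioredoxin, were in both sets. The REV-ERBα set also held *Mb* (myoglobin), *Pygm* (muscle glycogen phosphorylase), *Gapdh*, *Tcap* (telethonin, a Z-disc protein) and *Abra*, an activator of SRF signalling. These were picked from a set that also held *Olfr209*, *Hdac3*, *Nr1h3*, *Cnpy4*, *Scnm1* and *Tmem129*, among others. The rest of the BMAL1 set was *Ankrd23*, *Gm20741*, *Gm42417*, *Jmjd8*, *Smtn* and *Tbc1d12*. Whether muscle genes are frequent in either set was not tested.

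The 201 bp around each of the 4 BMAL1 and REV-ERBα summits at *Acta1* held neither CACGTG nor AGGTCA. Over all regions of the 2 factors, 2.66 to 4.28% of such windows held CACGTG and 10.6 to 13.7% held AGGTCA. The 2 CANNTG matches printed in capitals in the 3′ flank, CACCTG and CATATG, start 674 and 708 bp past the gene end, beside the BMAL1 summits at 644 and 698 bp. CANNTG was present in 63.1 to 66.2% of summit windows, so its presence here is the common case. The printed flank had a GC content of 47.4%, against 61.2% in the *Acta1* promoter, and 14.3% of its bases were repeat-masked. In the 201 bp around the replicate 1 summits of all regions, 27.1% of bases were masked for BMAL1 and 21.1% for REV-ERBα. Exact copies of 50-base stretches were searched on the autosomes, X and Y. No stretch of the 2 kb downstream of *Acta1* occurred elsewhere on them, while 1.06% of those in its body and 0.769% of those in the 2 kb upstream did.

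Upstream of *Acta1*, RNAP2 had further and much weaker peaks. In replicate 1 their summits lay 644, 1554, 2640 and 9062 bp before the TSS, with a −log10 p of 3.86, 11.6, 3.97 and 2.50. In replicate 2 they lay 1462 and 2841 bp before it, with 3.51 and 1.38. Merged over the replicates they formed 2 regions, which ranked 4471 and 10670 of 10752 RNAP2 regions by the lower of the 2 values, against 43 for the region over the gene. The nearer of the 2 regions covers the start of the antisense gene *Gm29773*, 1522 bp before the *Acta1* TSS, and the farther one lies in both *Gm29773* and *Nup133*, a nuclear pore gene whose 3′ end is 2372 bp from that TSS. The read-through gene model *Gm20388* spans the whole locus on the plus strand, and ChIP-seq peaks carry no strand. Peaks just outside the 10 kb limit were at 10321 bp (RNAP2 replicate 1, −log10 p 4.79), 11121 bp (RNAP2 replicate 2, 9.996) and 11280 bp (REV-ERBα replicate 2, 2.52), all downstream, and the outermost peak just inside it was the RNAP2 peak of 2.50.

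*Actc1* lies at chr2:114047282-114053548 on the minus strand and has 2 annotated TSSs. No factor had a region present in both of its replicates there, against 1, 1 and 3 regions at *Acta1*. BMAL1 had no peak in replicate 1 and 1 intronic peak in replicate 2, with a −log10 p of 2.40. REV-ERBα had 1 peak in replicate 1, with its summit 3956 bp upstream of the outermost TSS and a −log10 p of 2.50, and none in replicate 2. That peak lies inside *C130080G10Rik* and *A530058N18Rik*, non-coding genes on the opposite strand. RNAP2 had 2 intronic peaks of 3.97 each in replicate 1 and 1 peak over a coding exon of 2.60 in replicate 2. The RNAP2 peaks of the 2 replicates did not overlap.

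**Figure D2:**
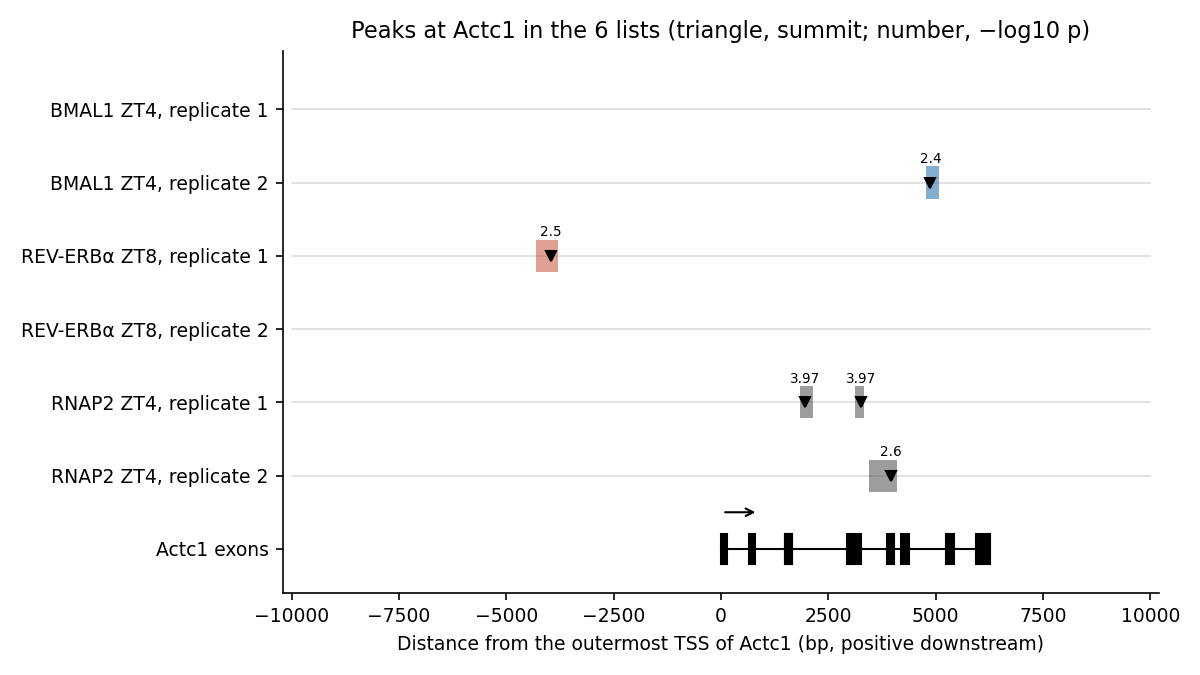
Peaks at *Actc1* in each of the 6 lists on the scale used for *Acta1*, as bars along the distance from its outermost TSS in bp, with triangles at the summits and the −log10 p above. The 5 bars are short, none overlaps a bar of the other replicate of its factor, none lies over the TSS, and BMAL1 replicate 1 and REV-ERBα replicate 2 have no bar.

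The *Actc1* values are common ones in their lists. Exactly the same −log10 p was carried by 22.9% of the peaks in BMAL1 replicate 2, by 19.6% in REV-ERBα replicate 1, by 10.6% in RNAP2 replicate 1 and by 19.7% in RNAP2 replicate 2. The −log10 q was 0 or 0.937 for the 5 peaks. Over protein-coding genes, the median of the strongest RNAP2 value was 3.97 in replicate 1 and 2.95 in replicate 2, so *Actc1* was at the median in one list and below it in the other. The strongest RNAP2 value at *Acta1* exceeded that at *Actc1* in both replicates, 131 against 3.97 and 39.9 against 2.60. With peak lists alone, a gene without a shared region can be unoccupied or occupied below the threshold, and these were not told apart. Sequence repeated elsewhere made up 0.338% of the 50-base stretches of the *Actc1* body and none of its flanks.

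The other 4 actin genes split along the same line. *Actb* and *Actg1*, which encode the cytoplasmic actins of all cells, had high RNAP2 values (111 and 45.0 at *Actb*, 76.4 and 69.0 at *Actg1*). *Acta2* and *Actg2*, the smooth muscle actins, had no region of any factor in both replicates, and their highest RNAP2 value was 3.21. *Actb* and *Actg1* also had REV-ERBα regions, 2 each, but neither had a BMAL1 region. The strongest REV-ERBα values in the gene window were 12.1 and 3.54 at *Actb* and 3.49 and 7.15 at *Actg1*, below the 19.6 and 21.2 of *Acta1* in each replicate. Their summits were also placed otherwise. At *Actb* they lay 910 and 237 bp downstream of the TSS within the gene, and at *Actg1* 367 and 1752 bp upstream of it. *Acta1* was thus the only one of the 6 actin genes with a BMAL1 region, and the strongest BMAL1 value at *Actb* was 3.24 and 1.87.

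**Figure D3:**
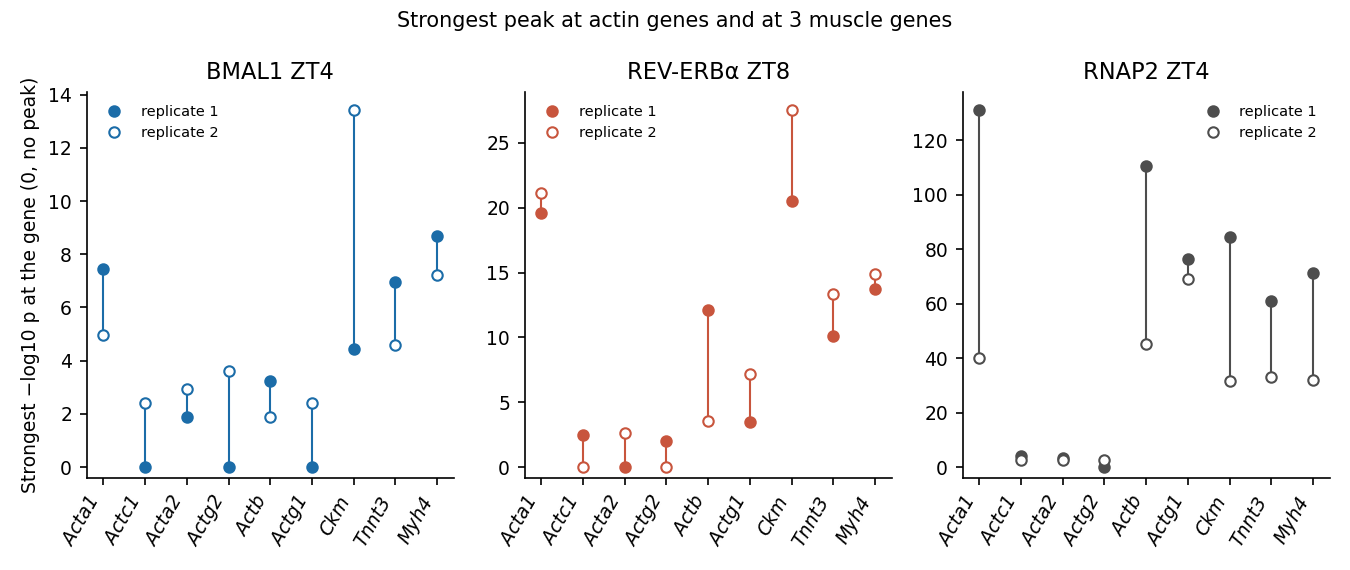
Strongest −log10 p at each of 6 actin genes and of *Ckm*, *Tnnt3* and *Myh4*, 1 panel per factor with its own axis, with replicate 1 filled, replicate 2 open and 0 for no peak. *Acta1* stands above the 5 other actins for BMAL1 and REV-ERBα in both replicates, and for RNAP2 it is joined by *Actb* and *Actg1*.

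Among thin filament genes, the partners of actin in the sarcomere, 6 of 16 had a BMAL1 region, 7 a REV-ERBα region and 14 an RNAP2 region, beside 6.81%, 4.44% and 41.1% of all protein-coding genes. The fast skeletal troponins were among those with all 3. *Tnnc2* (fast troponin C) had BMAL1 values of 6.60 and 4.53 and REV-ERBα values of 5.20 and 4.99, and *Tpm1* (tropomyosin) gave 5.72 and 5.18 in the BMAL1 lists and 11.2 and 10.97 in the REV-ERBα lists. The cardiac troponin genes *Tnnt2* and *Tnni3* had no region of any factor. *Neb*, which encodes the thin filament ruler nebulin, had 3.76 and 2.98 for BMAL1. None of the 16 exceeded *Acta1* in the BMAL1 lists except *Tpm1* in replicate 2, and none did so in the REV-ERBα or RNAP2 lists.

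Of 12 known regulators of actin genes, 3 had a BMAL1 region, 3 a REV-ERBα region and 10 an RNAP2 region, beside the same shares of all genes (6.81%, 4.44% and 41.1%). The values that follow are those of the strongest peak of each list in the gene window, which need not belong to the shared region. *Srf* itself had an RNAP2 region only, with RNAP2 values of 9.29 and 4.20. *Mrtfb*, an SRF coactivator, had a BMAL1 region and BMAL1 values of 2.48 and 2.98. The first of these is also the median of all peaks in BMAL1 replicate 1. *Abra* had a REV-ERBα region and REV-ERBα values of 3.02 and 3.29. *Mef2a*, a MADS-box factor of muscle genes, had the highest REV-ERBα values of this list, 15.7 and 6.60. Of 6 actin turnover genes, all 6 had an RNAP2 region (41.1% of all genes did), and *Pfn1* (profilin, which feeds actin monomers into filaments) was the only one with BMAL1 (4.74 and 9.61) and REV-ERBα (7.99 and 12.6) regions.

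Medians of the strongest −log10 p over each list, replicate 1 then replicate 2, were set beside those of all protein-coding genes. For BMAL1 they were 2.31 and 3.29 for thin filament genes, 2.48 and 2.60 for the regulators and 2.02 and 3.60 for turnover genes, against 0 and 2.40 for all genes. For REV-ERBα they were 2.76 and 3.86, 2.96 and 2.97, and 2.20 and 3.45 in the same order, against 0 and 0. For RNAP2 they were 10.8 and 6.10, 8.95 and 5.13, and 12.8 and 10.8, against 3.97 and 2.95. An all-gene median of 0 means that most genes had no peak in that peak list. A peak was present at 38.2% of genes in BMAL1 replicate 1, and at 38.7% and 40.1% in the REV-ERBα lists. In BMAL1 replicate 2 the median of the regulators was close to that of all genes. Over genes with a peak only, the all-gene medians were 2.48 and 2.98 in BMAL1. REV-ERBα then had 2.50 and 2.64, RNAP2 4.79 and 3.26. No gene list exceeded the BMAL1 replicate 1 value, although the gene list medians count genes without a peak as 0. The regulators in BMAL1 replicate 2 and turnover genes in REV-ERBα replicate 1 were also below, and the rest were above.

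The layout at *Acta1* was set beside that at 3 other highly loaded muscle genes. At *Tnnt3* the BMAL1 and REV-ERBα summits lay 759 to 996 bp past the gene end in all 4 lists, and the RNAP2 summits lay 87 and 30 bp downstream of the TSS. At *Myh4* the RNAP2 summits lay 37 and 253 bp upstream of the TSS. At *Ckm* they lay 6484 and 6334 bp downstream of the outermost annotated start. The *Ckm* gene model spans 18066 bp, and distances from any other start within it were not measured. At *Ckm*, muscle creatine kinase, the REV-ERBα summits lay 1112 and 590 bp past the end and the BMAL1 summit of replicate 2 lay 1395 bp past it, whereas that of replicate 1 lay in the gene. At *Myh4*, the fast IIb myosin heavy chain, the replicates differed in place for both factors. For BMAL1 the summit was 17 bp from the TSS in replicate 1 and 330 bp past the gene end in replicate 2, and for REV-ERBα it was in the gene in replicate 1 and 1630 bp past its end in replicate 2. *Ckm* had higher REV-ERBα values than *Acta1* in both replicates, 20.5 and 27.5, and a lower BMAL1 value in replicate 1 (4.45) but a higher one in replicate 2 (13.4).

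By the strongest value in each of the 6 lists, the protein-coding genes nearest to *Acta1* were *Tcap* and 3 genes beside it that share its peaks, *Stard3*, *Pnmt* and *Pgap3*. Their Euclidean distance from *Acta1* was 1.14 on the log2(1 + value) scale, and *Myh4* followed at 1.26. At *Tcap* the BMAL1 lists gave 10.996 and 10.6, the REV-ERBα lists 21.2 and 22.7, and the RNAP2 lists 141 and 33.2. Its REV-ERBα summits lay 375 and 213 bp past its end, whereas its BMAL1 summit lay 254 bp upstream of the TSS in replicate 1 and 238 bp past the end in replicate 2. The genes nearest to *Actc1* were *Med10*, at a distance of 0, and *Vmn1r46*, at 0.0200, and they carry the same recurring values described above.

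The overlap of RNAP2 regions with clock factor regions is given as counts with no test. Of 10752 RNAP2 regions, 106 (0.986%) overlapped a BMAL1 region and 427 (3.97%) a REV-ERBα region. Among the 43 that were at least as strong as the one over *Acta1*, itself included, the counts were 5 (11.6%) for BMAL1 and 15 (34.9%) for REV-ERBα, and the 5 overlapped both. The cutoff is the value of *Acta1* itself. Region width was not matched, and a longer region has more room for an overlap. The RNAP2 region over *Acta1* spanned 4614 bp, number 24 of 10752 by width, while the median RNAP2 peak was 214 bp in replicate 1 and 356 bp in replicate 2. The part of width in these shares was not tested. The part of RNAP2 level in the BMAL1 and REV-ERBα values at *Acta1* was not tested. No mock precipitation or knockout muscle was analysed here.

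**Figure D4:**
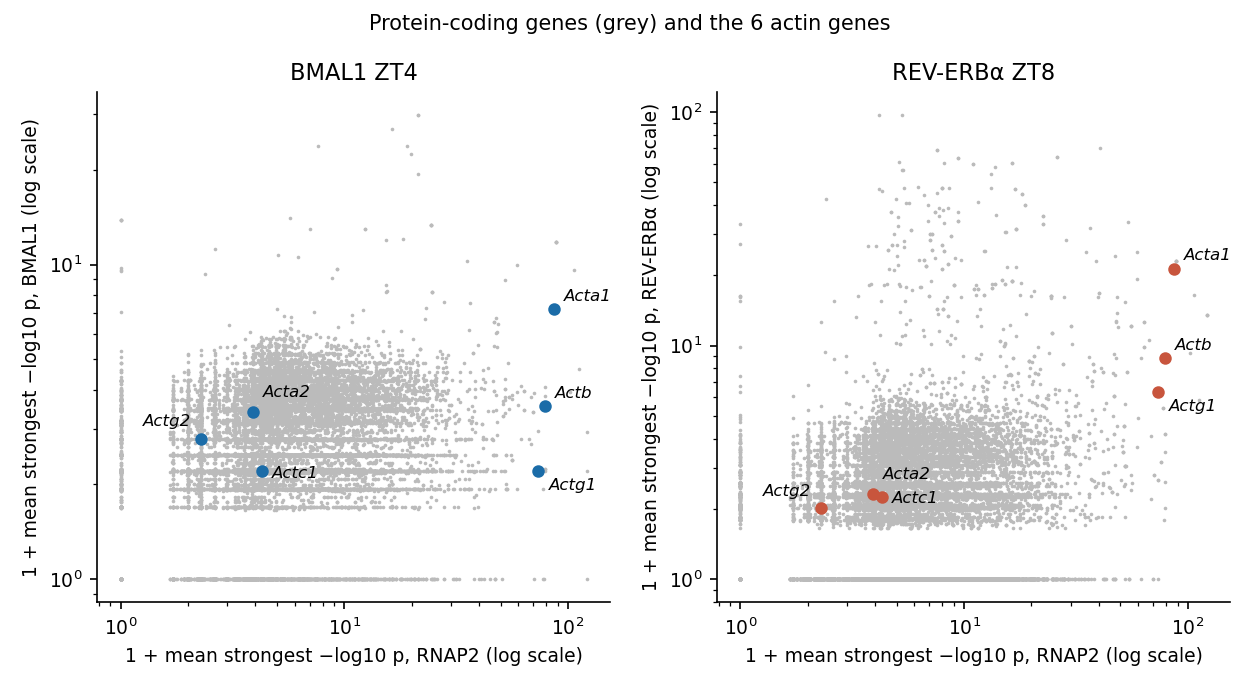
Mean over 2 replicates of the strongest −log10 p at each of 21938 protein-coding genes, plus 1 and on log axes, for RNAP2 (horizontal) against BMAL1 (left) and REV-ERBα (right), with the 6 actin genes in colour. *Acta1*, *Actb* and *Actg1* lie together at the right on the RNAP2 axis and *Acta1* is the highest of them on both vertical axes, while *Actc1*, *Acta2* and *Actg2* lie in the bulk of genes.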

How the data were processed

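Peak lists were available for 6 ChIP samples of mouse gastrocnemius; the input sample has no list among those used here. Per the study's methods, the authors aligned reads to mm10 with BWA 7.12, discarded duplicates and reads with several alignments, thinned the replicates of a factor to similar depth and called peaks per sample against input with MACS2 2.1.1 at a permissive p-value cutoff. The deposited fold enrichment is a ratio of the summit signal to the local input background. The deposited −log10 p and −log10 q values are those of the authors' MACS2 run. The deposited score was not used. Read counts under a peak are not part of these lists, so depth per peak is unknown and no counting interval is given.

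A peak belonged to a gene if it overlapped its body or the 10 kb on either side of any GENCODE M21 TSS. Overlapping peaks (1 bp) of both replicates were merged into regions. The 2 replicates of a factor cannot reach significance in an exact test, so no test was run. Region counting found 200 of 200 planted genes in simulated lists of 2000 genes. Analyses used Python 3.11.15, numpy 2.4.6 and pysam 0.24.0. Motifs were searched on both strands, and promoters came from RefSeq GRCm38.p6. Summit distances from a TSS run from the outermost annotated TSS of the gene, at *Actc1* and at the compared genes alike. Named genes were the members, other actins, thin filament genes, actin gene regulators, actin turnover genes, markers, 3 compared loci, neighbours within 10 kb and the 5 genes nearest in value that share no peak with the member. *Txnip*, *Mb*, *Pygm*, *Gapdh* and the other genes listed only for a summit past the gene end were named after their values were seen. The members and lists were chosen with earlier results of these data known. Alternatives were stricter thresholds, other windows, fold in place of −log10 p, another overlap rule and each replicate left out.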

Additional observations from a re-analysis of the deposited data

How the results depend on the processing

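Of 114 values recomputed under an alternative, 84 stayed within the spread of the replicates or within 1.5 times the count and 30 moved. Requiring a −log10 q of at least 1.3 left 0 BMAL1 and 1 RNAP2 region at *Acta1*, and at *Actc1* no peak, so that 100% of genes had a strongest peak at least as high for each factor. The share of protein-coding genes with a mean REV-ERBα value at least that of *Acta1*, 0.570%, became 0.497% with a 5 kb window, 0.729% with 20 kb and 0.470% by fold enrichment. With 20 kb, 6774 bp were under an RNAP2 peak of both replicates at *Acta1*, against 5300. Leaving a replicate out gave 21 of the 30 moved values. With 1 replicate alone no shared region can be formed, so the peaks of that list were counted instead. At *Acta1* they numbered 1 to 3 for BMAL1, 1 to 2 for REV-ERBα and 3 to 5 for RNAP2, and at *Actc1* 0 to 1, 0 to 1 and 1 to 2. The bases under a peak were 2113 to 4314, 4624 to 5709 and 5825 to 6536 at *Acta1*, and 0 to 294, 0 to 517 and 513 to 647 at *Actc1*, in the same order of factors. The shares of genes at least as high were 0.219 to 1.76%, 0.547 to 0.565% and 0.0410 to 0.273% at *Acta1*, and 66.0 to 100%, 25.0 to 100% and 52.8 to 66.9% at *Actc1*. The cause of these changes was not tested. A −log10 p threshold of 3, the summit in place of any overlap and an overlap of 50% moved none of their values beyond these limits. Smaller changes did occur at *Acta1*. The RNAP2 regions fell from 3 to 2 with the −log10 p threshold of 3 and with the 50% overlap. That threshold also cut the bases under a BMAL1 peak of both replicates from 2113 to 1512. No paired analysis was possible because no test was run and replicate numbers are not said to mark shared animals across factors. Depth per peak is unknown, and 2 replicates give a range rather than an error.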
